A study of Homo sapiens with 12 samples.

Results

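The genes described here are chromatin remodelers and histone modifying enzymes, along with the enzymes that write and erase DNA methylation. They were chosen by symbol from the protein-coding genes of the deposited count table, with earlier results of these data known. Their names begin with KMT2 to KMT5, KDM1 to KDM8, SMARCA to SMARCE, CHD or ARID1 to ARID5. Others begin with SETD, BRD or HDAC followed by a digit, EZH1 or EZH2, DNMT1 or DNMT3, or TET1 to TET3. The rule gave 98 members of the 58735 genes in the table. TIGK cells, a gingival keratinocyte line immortalized with hTERT, were grown in medium with 48 mM glucose. They either received 500 µM L-arginine (Arg) or were left as the untreated control, for 24 h or 48 h. The study's methods describe the base medium of its assays as free of Arg, so the control was grown without added Arg. The 4 groups held 3 libraries each (A, B and C), so 12 poly(A) RNA libraries entered the comparisons. All came from 1 immortalized line in high glucose. The study's methods describe cells plated in 6-well plates and replicates lettered A, B and C, without saying whether these were separate experiments, so the p-values measure the spread between these libraries, which may be technical.

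Chromatin regulators decide which parts of the genome can be transcribed. Histone methyltransferases (found among the KMT, SETD and EZH proteins) add methyl groups to histone tails, and the KDM demethylases remove them. HDAC enzymes remove acetyl groups and in most settings reduce transcription, while bromodomain (BRD) proteins bind acetylated histones. Most of the SMARC, ARID1, ARID2 and CHD proteins belong to ATP-driven complexes that slide or evict nucleosomes. DNMT1 copies DNA methylation after replication, DNMT3A and DNMT3B place it anew, and TET enzymes oxidise it as a step towards removal. In stratified epithelia several of these enzymes are known for holding basal keratinocytes in the proliferating state, EZH2, DNMT1 and HDAC1 with HDAC2 among them.

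Library totals ranged from 16542243 to 19040964 assigned counts, and the members took 0.575% to 0.759% of them. The keratinocyte markers were present in every library, with 12 markers summing to 44026 to 56338 CPM (counts scaled to library size with TMM factors). The leukocyte list summed to at most 0.629 CPM, and its marker LYZ had no count in any library. The control libraries lettered B stood apart from A and C. In control B at 24 h the median member stood at 40.5 CPM, against 34.7 and 35.5 CPM in A and C. Control B at 48 h had a median member level of 47.9 CPM, against 41.5 and 40.6 CPM, and 1.55% of its counts were mitochondrial, against 0.906% and 0.707%. At 24 h Arg A also stood apart from Arg B and C. Its chi-square per degree of freedom over genes was 12.4 and 10.9 against them, while they gave 5.41 against each other, and its median member stood at 35.4 CPM, against 39.3 and 38.7 CPM. Control B at 24 h gave 12.3 and 12.5 against A and C (6.54 between them), and control B at 48 h 20.9 and 23.9 (3.66 between them). Results that rest on these libraries are given below with and without them.

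Of the 98 members, 93 had enough counts to be tested with Arg at 24 h and 94 at 48 h. ARID3C with 9 counts over all libraries, DNMT3L with 3, and KDM4E and KDM4F with 0 were not tested anywhere. HDAC10, with 101 counts, was tested with Arg at 48 h, over time in the controls and in the interaction, and CHD5, with 144 counts, in all but the comparison over time in the controls. KDM5D is counted in the totals and is not described further. The rule also took in BRD3OS, a gene on the strand opposite BRD3 that belongs to none of the roles.

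The upstream sequences of the 3 members that passed the adjusted test with Arg at 24 h are shown because the comparison at 24 h turns on them. They come from RefSeq (GRCh38.p14), read 5′ to 3′ on the strand of the gene and end at the base before the RefSeq start or, for SETD3, before the annotated gene. Capitals mark CCAAT, or ATTGG where the same letters lie on the other strand.
SETD5 (chr3:9397465-9397614, + strand): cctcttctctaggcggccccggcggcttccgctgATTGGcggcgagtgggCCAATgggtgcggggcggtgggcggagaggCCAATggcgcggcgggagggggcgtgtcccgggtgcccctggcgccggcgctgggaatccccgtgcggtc
DNMT3B (chr20:32779702-32779851, + strand): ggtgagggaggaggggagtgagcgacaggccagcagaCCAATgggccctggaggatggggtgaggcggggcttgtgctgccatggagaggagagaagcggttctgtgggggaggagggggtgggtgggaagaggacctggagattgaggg
SETD3 (chr14:99480890-99481009, - strand): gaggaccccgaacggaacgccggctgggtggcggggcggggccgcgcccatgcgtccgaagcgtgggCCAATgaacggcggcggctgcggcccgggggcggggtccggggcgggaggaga

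SETD5 holds 3 such matches and the other genes 1 each. The deposited gene SETD5 overlaps THUMPD3-AS1 on the opposite strand. The stretch of DNMT3B lies inside the deposited gene, which begins further upstream. Over the 300-base windows around the RefSeq starts (250 bases before and 50 after), 29.8% of the 84 members with an entry held CCAAT on either strand, against 36.2% of all 17393 entries. The E2F letters TTTCCCGC or TTTGGCGC occurred in 3.57% of members and 2.89% of all entries. The CHR letters TTTGAA or TTCGAA occurred in 7.14% and 14.3%. The windows of members had a median GC content of 67.7%, against 61.7% for all entries. A match is a description of letters and not a binding site.

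Levels were divided by the deposited exonic length in kilobases, and on this scale a few members led the roles in these cells. The order depends on that length. HDAC1, a class I deacetylase of the NuRD and SIN3 complexes, had the highest level of all members with 57.8 CPM per kb, followed by the maintenance methyltransferase DNMT1 with 44.6. HDAC2 had a higher level than HDAC1 in CPM (274 against 229) but a deposited length of 15461 bases against 3963. It stood at 17.7 CPM per kb. Among remodelers the SWI/SNF subunit SMARCD2 led with 38.9 CPM per kb, and among demethylases KDM1A, which removes methyl groups from H3K4, led with 34.8. BRD2 led the bromodomain readers with 30.2, CHD3 the CHD remodelers with 20.7, KMT5A, the H4K20 monomethylase, the methyltransferases with 18.3 and ARID5B the remaining ARID proteins with 6.02. CHD4 stood at 1.61 CPM per kb, but a read-through gene with 0 counts covers 83.9% of its span. Whether this lowered the level of CHD4 was not tested. Paralogs were far apart. The SWI/SNF ATPase SMARCA4 stood at 20.6 CPM per kb and its paralog SMARCA2 at 1.05. EZH2, the H3K27 methyltransferase of PRC2, stood at 15.5 and EZH1 at 1.24.

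The first comparison asked what Arg did to these mRNAs after 24 h in high glucose. The SET-domain gene SETD5 and the de novo DNA methyltransferase DNMT3B were upregulated, and SETD3, which methylates a histidine of actin, was downregulated. A call here means an adjusted p under 0.05 in edgeR's quasi-likelihood test, with Benjamini-Hochberg adjustment over all 14279 genes tested. The 2 members that were higher with Arg were 2.15% of the 93 tested, where 2.79% of all genes were called higher. The 1 member that was lower was 1.08%, where 3.84% of all genes were called lower. The higher share was near that of all genes and the lower share below it, on 2 and 1 members. By DESeq2, and also with all 12 libraries in 1 edgeR model, EZH2, HDAC7 and SMARCD2 were called higher as well. For DESeq2 this made 5 higher members (5.38%, beside 3.46% of all genes) and 1 lower (1.08%, beside 4.52%). The mitochondrial share of the counts separated the same groups, at 1.20%, 1.30% and 1.23% in the controls at 24 h and 0.802%, 0.624% and 0.776% with Arg, and its part in the differences at 24 h was not tested. At 48 h these shares overlapped between the groups.

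SETD5 (ENSG00000168137, GRCh38 chromosome 3, 9397615 to 9479240, + strand) measured 41.6, 41.6 and 41.1 CPM in the controls at 24 h and 54.6, 62.6 and 56.0 CPM with Arg. All 3 Arg libraries stood above all controls, whose values were almost equal. The log2 fold change was 0.48 (SE 0.09, edgeR adjusted p = 0.00456), and it remained called when each of the 6 libraries was left out in turn, with adjusted p from 0.00478 to 0.0375. Arg libraries were also higher at 48 h, with 64.9, 62.3 and 68.6 CPM against 45.9, 58.8 and 53.2 CPM, where the log2 fold change of 0.31 was not called (edgeR adjusted p = 0.207).

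DNMT3B (ENSG00000088305, GRCh38 chromosome 20, 32762385 to 32809356, + strand) measured 21.8, 25.1 and 16.0 CPM in the controls at 24 h and 26.4, 30.1 and 35.0 CPM with Arg. The groups did not overlap, though the lowest Arg value lay close to control B. The log2 fold change was 0.54 (SE 0.15, edgeR adjusted p = 0.0329). The call was lost without control A, control C, Arg B or Arg C, with adjusted p up to 0.177, and the log2 fold change then ranged from 0.38 to 0.69 over the 6 omissions.

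SETD3 (ENSG00000183576, GRCh38 chromosome 14, 99397746 to 99480889, - strand) measured 79.1, 68.3 and 79.0 CPM in the controls at 24 h and 60.0, 61.0 and 61.3 CPM with Arg. Each Arg library was below each control. The log2 fold change was -0.31 (SE 0.09, edgeR adjusted p = 0.0431), and the call held in only 1 of the 6 omissions, the one without control B, with adjusted p up to 0.180 otherwise.

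**Figure D1:**
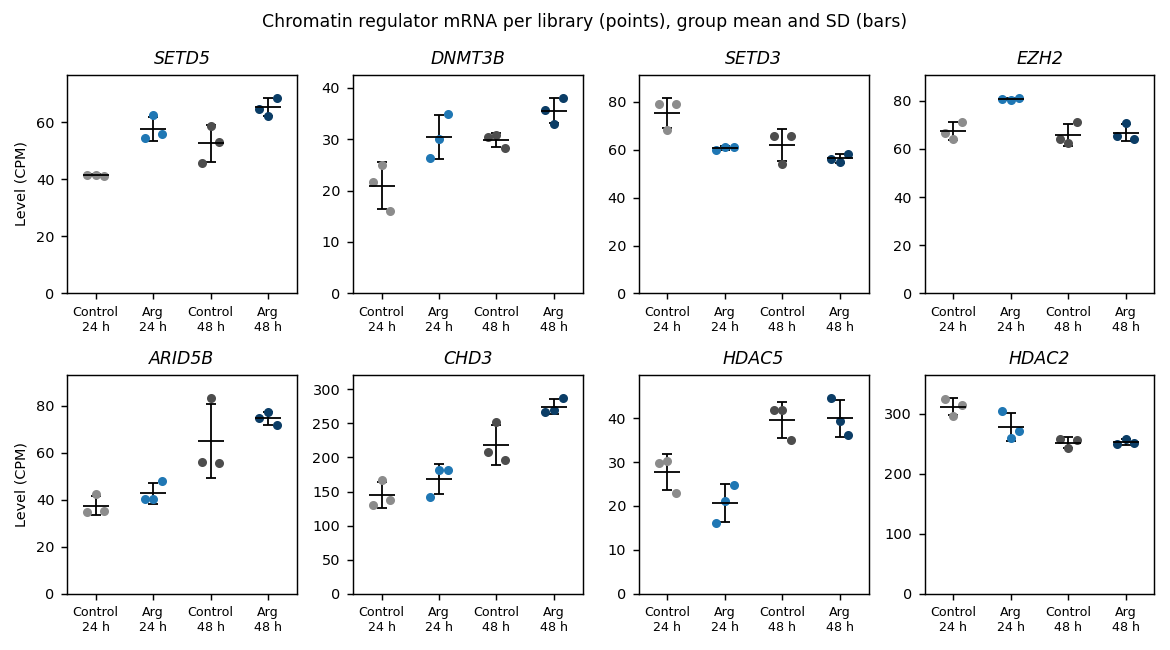
Levels of 8 chromatin regulators in CPM (y axis, from 0) in the 4 groups (x axis). Points are the 3 libraries of each group and the horizontal and vertical bars the group mean and SD. SETD5 and DNMT3B were higher and SETD3 lower with Arg at 24 h without overlap of the groups, and ARID5B and CHD3 were higher at 48 h than at 24 h under both treatments.

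At an unadjusted p under 0.05, 26 members were higher with Arg at 24 h and 8 were lower. These are 28.0% and 8.6% of the members tested, beside 10.8% and 11.9% of all genes. Of the 93 members, 63 had a positive log2 fold change (67.7%, against 50.5% of all genes), and the median member stood at 0.11 on the log2 scale against 0.00 for all genes. By role the 26 comprised 8 methyltransferases (SETD5, EZH2, SETD1B, KMT2E, KMT5A, SETD4, EZH1 and KMT2A), 5 SWI/SNF subunits (SMARCD2, ARID1A, SMARCC2, SMARCE1 and ARID2), 4 DNA methylation enzymes (DNMT3B, DNMT3A, TET1 and TET2), 4 deacetylases (HDAC7, HDAC6, HDAC4 and HDAC11), 2 demethylases (KDM2A and KDM5A), 2 bromodomain readers (BRD9 and BRD2) and CHD2. Their log2 fold changes ran from 0.17 for BRD2 to 0.80 for SMARCE1 and TET1. The 8 were SETD3, SMARCA1, HDAC5, KDM6B, KDM7A, KMT2C, SETD6 and SMARCB1, from -0.64 for KDM7A to -0.16 for SMARCB1. At the adjusted threshold all but SETD5, DNMT3B and SETD3 of these missed. Without control B at 24 h, 16 members (17.2%) were called higher at the adjusted threshold, beside 4.42% of all genes, and 1 lower. This library thus changed the number of higher calls from 2 to 16. Leaving out Arg A gave 6 higher calls, and leaving out any other library gave 1. No shares of all genes stand beside these last counts, so they do not tell a change of the members from one of all genes.

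Among the 19 members listed as histone methyltransferases, 15 had a positive log2 fold change at 24 h and the role median was 0.16. The list includes SETD3, described above as a methyltransferase of actin. The PRC2 subunit EZH2 measured 66.7, 64.2 and 71.3 CPM in the controls and 80.8, 80.5 and 81.2 CPM with Arg. The groups did not overlap, yet the log2 fold change of 0.26 (SE 0.08) missed the threshold by edgeR (adjusted p = 0.0716), while DESeq2 called it higher. Its paralog EZH1 measured 5.30, 6.15 and 7.12 CPM against 7.30, 9.14 and 8.64 CPM, a log2 fold change of 0.43 (edgeR adjusted p = 0.170). KMT5A gave 0.21 (edgeR adjusted p = 0.132). The H3K4 methyltransferase KMT2C went the other way, with 31.7, 36.7 and 35.3 CPM in the controls and 27.9, 30.0 and 29.3 CPM with Arg (log2 fold change -0.25, edgeR adjusted p = 0.144).

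The 6 tested enzymes of DNA methylation and demethylation all had positive log2 fold changes, with a role median of 0.32. DNMT3A measured 15.9, 19.97 and 16.8 CPM against 19.5, 23.8 and 23.7 CPM, with control B inside the Arg range (log2 fold change 0.34, edgeR adjusted p = 0.119). TET1 showed the largest log2 fold change of the role, 0.80 (SE 0.32, edgeR adjusted p = 0.142), at levels of 1.14 to 3.10 CPM in the controls and 3.48 to 3.84 CPM with Arg. DNMT1, the most abundant of them, measured 426, 444 and 405 CPM against 396, 479 and 415 CPM, and its log2 fold change of 0.01 (SE 0.08) changed sign under the exonic length correction described below.

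Of 10 tested deacetylases, 5 had a positive log2 fold change and none was called by edgeR. HDAC7 was called higher by DESeq2, with all 12 libraries in 1 model and with no filter on low counts. HDAC1 gave -0.06 (SE 0.07) and HDAC2 -0.16 (SE 0.08). Both overlapped between the groups. HDAC5, a class IIa deacetylase that shuttles between nucleus and cytoplasm, had the lowest value, with 29.8, 30.2 and 22.9 CPM in the controls and 16.1, 21.1 and 24.8 CPM with Arg. These groups overlapped, and the log2 fold change of -0.42 (SE 0.15) was not called (edgeR adjusted p = 0.0935), though it was called lower with no filter on low counts. Of the 18 tested demethylases, 12 had a positive value with a role median of 0.05. KDM7A, which removes methyl groups from H3K9 and H3K27, was the extreme member, at 3.90, 5.19 and 4.92 CPM against 2.19, 3.26 and 3.54 CPM (log2 fold change -0.64, SE 0.25, edgeR adjusted p = 0.138). The abundant KDM1A gave -0.11 (SE 0.08).

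The 16 genes of the SWI/SNF and ISWI list, which also holds SMARCAD1 and SMARCAL1, divided into 9 with positive and 7 with negative values. SMARCD2 measured 132, 131 and 117 CPM in the controls and 142, 153 and 158 CPM with Arg, a log2 fold change of 0.26 (SE 0.08, edgeR adjusted p = 0.0703). The ISWI ATPase SMARCA1 measured 48.1, 56.0 and 45.8 CPM against 39.4, 40.3 and 41.0 CPM, a log2 fold change of -0.31 (SE 0.10, edgeR adjusted p = 0.0616). Neither pair of groups overlapped and neither gene was called by edgeR, while DESeq2 called SMARCD2 higher. The ATPases SMARCA4 and SMARCA2 gave 0.12 and 0.16, within overlapping groups. SMARCE1 had the largest value, 0.80 (SE 0.33), on 476 counts over all libraries. The deposited annotation places a read-through gene with 0 counts over 90% of its span, as it does for CHD4 (83.9%), HDAC8 (99.9%) and KDM4A (100%), and whether reads were set aside as ambiguous there was not tested.

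Among the CHD remodelers CHD3, an ATPase of NuRD, gave 0.22 and its paralog CHD4 -0.04 at 24 h, and CHD5 gave 0.63 (SE 0.54) on 144 counts. Of the 7 bromodomain readers 6 were positive. BRD9, a subunit of a non-canonical SWI/SNF complex, measured 57.2, 59.2 and 57.0 CPM against 65.7, 74.0 and 67.1 CPM (log2 fold change 0.25, edgeR adjusted p = 0.0898). BRD9 overlaps TRIP13 on the opposite strand, a gene with 327% of its counts. Other members also overlap a gene with more counts on the opposite strand, among them SETD6 (CNOT1, 1890% of its counts), SETD4 (CBR1, 776%), SMARCC2 (MYL6, 629%), BRD8 (KIF20A, 349%) and KMT2E (SRPK2, 294%), and SETD5 overlaps THUMPD3-AS1 (11.8%). The strand setting of the counting is not given in the sources used here, so their reads may not be told apart. The remaining ARID proteins had a median of -0.02, and ARID3A gave -0.39 (SE 0.27) at 3.14 to 7.62 CPM. BRD3OS gave 0.09 (SE 0.11).

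**Figure D2:**
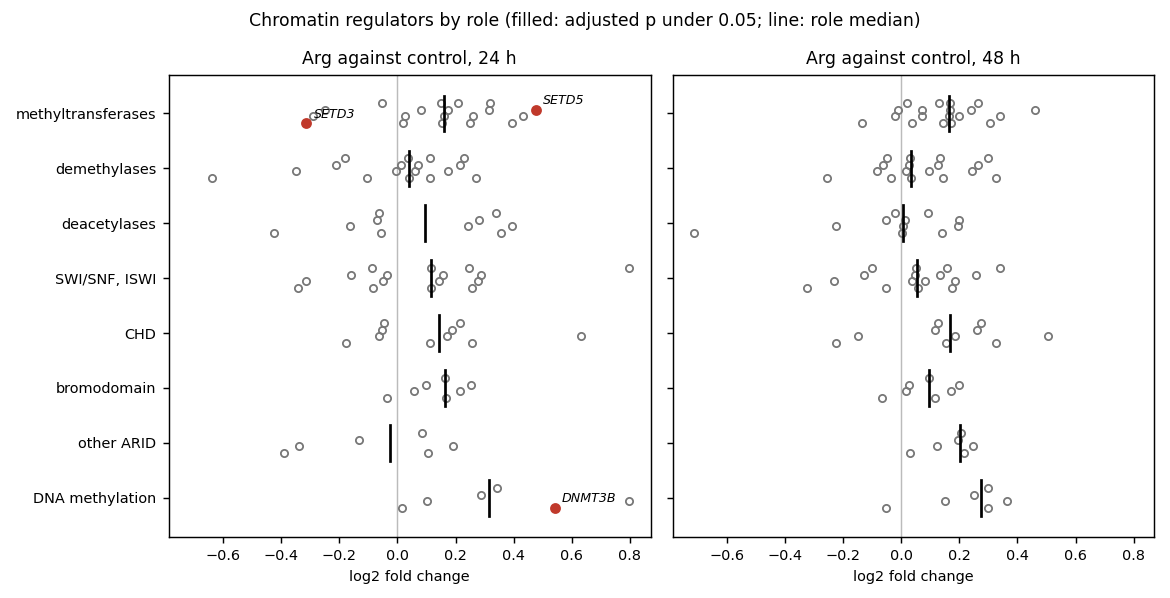
Log2 fold change of Arg against the untreated control (x axis) for each tested member (points) by role (y axis), at 24 h (left) and 48 h (right). Filled points passed an adjusted p of 0.05, black lines are role medians of the members drawn, and KDM5D and BRD3OS are not drawn. SETD5, DNMT3B and SETD3 are the filled points at 24 h and none is filled at 48 h.

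The same question was asked after 48 h. No member was called in either direction at the adjusted threshold by edgeR, where 0% of all 14562 genes were called higher and 0.117% lower. By DESeq2, CHD3, KDM2A, KMT2D and TET3 were called higher (4.26% of the members tested, beside 0.275% of all genes) and none lower (0.989% of all genes). At an unadjusted p under 0.05, 15 members were higher (16.0%, beside 5.94% of all genes) and 2 were lower (2.13%, beside 7.49%). Of the 94 members tested 73 had a positive log2 fold change (77.7%, against 50.3% of all genes), with a median of 0.12 against 0.00. Without control B at 48 h, 23 members were called higher (24.5%, beside 7.76% of all genes) and SETD3 and SMARCA1 lower. Leaving out any other library at 48 h gave no call. The 15 were KDM2A and KDM5A, KMT2D, SETD1B and SETD5, TET3, DNMT3A and DNMT3B, ARID1A and SMARCC1, BRD2, and the remodelers CHD2, CHD3, CHD6 and CHD7, with log2 fold changes from 0.18 to 0.46. The 2 were SMARCA1 and SMARCAL1.

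The members with the smallest p at 48 h were KDM2A, a demethylase that binds unmethylated CpG islands, KMT2D, which monomethylates H3K4 at enhancers, and the oxidising enzyme TET3. KDM2A measured 238, 249.98 and 248 CPM in the controls and 285, 294 and 306 CPM with Arg (log2 fold change 0.26, SE 0.06, edgeR adjusted p = 0.133). KMT2D measured 60.0, 71.5 and 67.4 CPM against 83.5, 81.7 and 109.5 CPM (log2 fold change 0.46, SE 0.11, edgeR adjusted p = 0.145). TET3 measured 69.4, 84.7 and 75.4 CPM against 93.3, 94.3 and 109 CPM (log2 fold change 0.37, SE 0.09, edgeR adjusted p = 0.148). In all 3 genes every Arg library exceeded every control, and control B was the highest control.

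CHD3 and CHD6 followed with log2 fold changes of 0.32 and 0.27 (edgeR adjusted p = 0.170 and 0.196). On the lower side SMARCA1 measured 68.1, 55.3 and 71.8 CPM in the controls and 54.4, 54.2 and 47.7 CPM with Arg, a log2 fold change of -0.32 (SE 0.10, edgeR adjusted p = 0.218). SMARCAL1, which remodels stalled replication forks, gave -0.23, CHD4 -0.23, SETD3 -0.14 and the SWI/SNF core subunit SMARCB1 -0.13, with edgeR adjusted p from 0.345 to 0.527. The role medians ran from 0.00 for the deacetylases to 0.27 for the DNA methylation enzymes, and all 6 tested ARID proteins outside SWI/SNF were positive.

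The Arg effect was next compared between the time points with an interaction term over all 12 libraries. No member passed the adjusted threshold, where 0.0132% of 15148 genes were called higher at 48 h than at 24 h in their Arg effect and 0% lower. At an unadjusted p under 0.05 there were 3 members with a higher Arg effect at 48 h (3.19%, beside 3.06% of all genes) and 1 with a lower one (1.06%, beside 3.8%), and DESeq2 also called none. These shares are near those of all genes. The 3 were KDM7A, with an interaction of 0.94 on the log2 scale (SE 0.33), KMT2C with 0.42 (SE 0.16) and HDAC5 with 0.44 (SE 0.20), and EZH2 had the lower effect with -0.24 (SE 0.11). Their edgeR adjusted p ranged from 0.606 to 0.708. At 48 h EZH2 measured 64.0, 62.4 and 71.2 CPM in the controls and 65.4, 70.8 and 64.3 CPM with Arg, so the separation of the groups at 24 h was not present at 48 h.

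The libraries also allow 48 h to be compared with 24 h, once in the controls and once with Arg, in libraries that these comparisons do not share with each other. Each shares libraries with the Arg comparisons above. In the controls 23 members rose (24.7%, beside 9.9% of all genes) and 3 fell (3.23%, beside 10%). With Arg 31 rose (33.3%, beside 14.3%) and 3 fell (3.23%, beside 14%). Of the 92 members tested in both, 18 rose in both, which is 78.3% of the control list and 58.1% of the Arg list. For all genes the corresponding shares were 71.9% and 49.8%. HDAC3 and SMARCD1 fell in both.

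**Figure D3:**
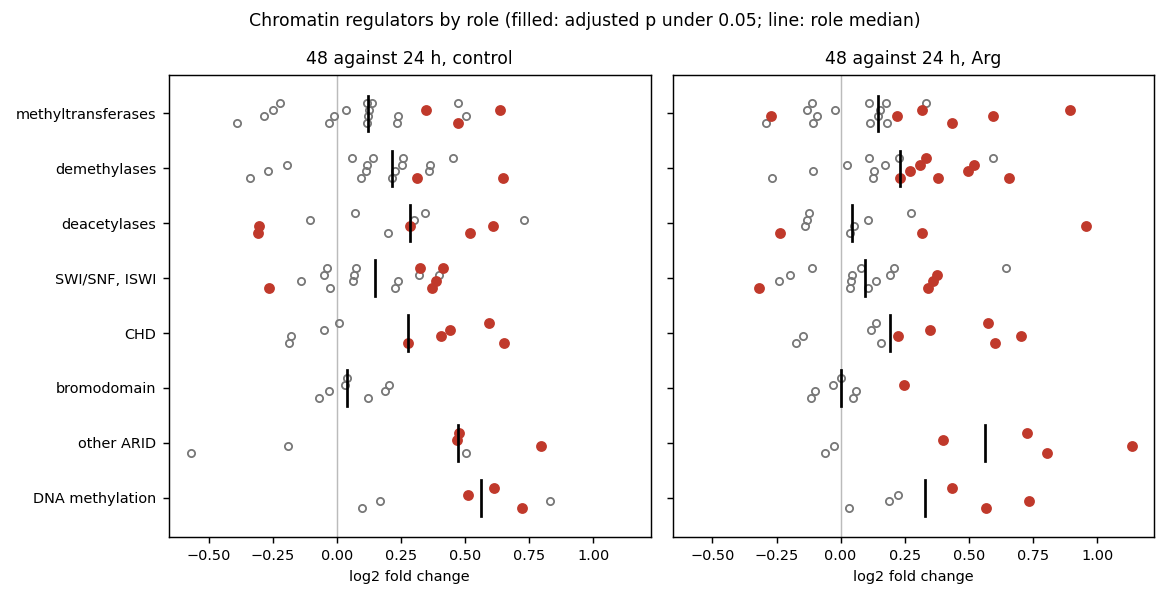
Log2 fold change of 48 h against 24 h (x axis) for each tested member (points) by role (y axis), in the controls (left) and with Arg (right). Filled points passed an adjusted p of 0.05, black lines are role medians of the members drawn, and KDM5D and BRD3OS are not drawn. Filled points lie mainly to the right of 0 in both panels, with 23 and 31 members that rose and 3 that fell in each.

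Rises were called in 3 of 6 ARID proteins outside SWI/SNF in the controls and 4 of 6 with Arg, and in 3 of 6 enzymes of DNA methylation in each. Of the 18 demethylases tested, 2 rose in the controls and 8 with Arg, beside 9.9% and 14.3% of all genes. Under the exonic length correction described below, the demethylases that rose were KDM4B in the controls and KDM3A, KDM4A, KDM4B and KDM6B with Arg. ARID5B, which targets a histone demethylase to DNA, measured 35.0, 42.4 and 35.2 CPM in the controls at 24 h and 56.3, 83.3 and 55.7 CPM at 48 h. With Arg it measured 40.3, 40.2 and 48.1 CPM and then 75.1, 77.3 and 71.9 CPM. The log2 fold changes were 0.80 (SE 0.15, edgeR adjusted p = 0.00511) and 0.80 (SE 0.09, edgeR adjusted p = 1.52e-06), and control B at 48 h stood far above A and C.

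The CHD remodelers rose in 5 members under each condition. CHD3 measured 131, 167 and 137 CPM at 24 h and 207, 252 and 197 CPM at 48 h in the controls, and 143, 182 and 181 CPM and then 267, 269 and 287 CPM with Arg. The 48 h libraries were above all 24 h libraries in each case, with log2 fold changes of 0.59 (SE 0.11) and 0.70 (SE 0.08). CHD2, another ATP-driven remodeler, rose by 0.65 in the controls and 0.58 with Arg, and CHD6 by 0.44 and 0.60. CHD8 and CHD9 were the other risers, but neither was called in either series under the exonic length correction, where the value of CHD8 with Arg went from 0.23 to -0.01. CHD4 gave 0.01 and -0.17 and was not called.

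DNMT3A rose by 0.61 in the controls (edgeR adjusted p = 0.00741) and by 0.57 with Arg, from 15.9 to 19.97 CPM up to 24.5 to 29.0 CPM in the controls. TET2 rose by 0.72 and 0.73, with control B at 48 h at 57.7 CPM beside 34.6 and 34.2 CPM. DNMT3B rose in the controls (0.51, edgeR adjusted p = 0.0299) and gave 0.22 with Arg, where it was not called. DNMT1 gave 0.10 and 0.03. KMT2C rose by 0.47 in the controls and by 0.89 with Arg, and the H3K9 demethylase KDM4B by 0.65 and 0.66. ARID3A, a DNA-binding ARID protein, rose by 1.14 with Arg (SE 0.23, edgeR adjusted p = 0.000997), from 3.14 to 7.09 CPM up to 8.80 to 13.5 CPM, and gave 0.50 in the controls without a call.

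Within the deacetylases, the class I members moved in different directions over time. HDAC1 measured 212, 213 and 203 CPM in the controls at 24 h and 259, 259 and 245 CPM at 48 h, a rise of 0.28 (SE 0.07, edgeR adjusted p = 0.0143). With Arg it rose by 0.32 (SE 0.06). HDAC2, its close paralog, measured 324, 296 and 314 CPM and then 257, 242 and 256 CPM in the controls. The log2 fold change of HDAC2 there was -0.30 (SE 0.07, edgeR adjusted p = 0.0118). That call held in 4 of the 6 omissions of a library, with edgeR adjusted p up to 0.0682. With Arg HDAC2 gave -0.14, which was not called. HDAC3, the catalytic subunit of the NCoR complexes, fell in the controls (-0.31, edgeR adjusted p = 0.0285) and with Arg (-0.23, edgeR adjusted p = 0.0187). Its calls held in 2 of the 6 omissions of a library in the controls, with edgeR adjusted p up to 0.128, and in 3 of 6 with Arg, up to 0.0974. HDAC5 rose by 0.52 in the controls and by 0.96 with Arg (SE 0.13, edgeR adjusted p = 1.60e-05), from 16.1 to 24.8 CPM up to 36.2 to 44.5 CPM.

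The SWI/SNF subunit SMARCD1 fell in both series, with log2 fold changes of -0.26 in the controls (edgeR adjusted p = 0.0465) and -0.32 with Arg (edgeR adjusted p = 0.00296), while SMARCA1 rose by 0.38 and 0.37. The call of SMARCD1 held in 2 of the 6 omissions in the controls, with edgeR adjusted p up to 0.147, and in all 6 with Arg. SMARCA4 gave 0.07 and 0.04 and was not called. EZH2 fell with Arg, from 80.8, 80.5 and 81.2 CPM to 65.4, 70.8 and 64.3 CPM (log2 fold change -0.27, SE 0.08, edgeR adjusted p = 0.0101), and gave -0.03 in the controls. EZH1 rose in the controls by 0.64 (edgeR adjusted p = 0.0291) and gave 0.33 with Arg. The calls in the controls varied with single libraries. Without control A at 24 h, 5 members were called higher (5.32%, beside 2.85% of all genes) and none lower (2.74% of all genes). Without control C at 24 h, 7 were higher (7.45%, beside 3.34%) and none lower (3.36% of all genes), and without control A at 48 h, 14 were higher (15.1%, beside 6.17%) and 3 lower (3.23%, beside 6.22%). Without control B at 24 h there were 29 higher (31.2%, beside 10.7%) and 5 lower (5.38%, beside 11.6%), and without control B at 48 h 17 higher (18.1%, beside 7.81%) and 1 lower (1.06%, beside 8.60%). With Arg the omission of Arg C at 48 h left 20 higher calls (21.5%, beside 10.7%), the fewest of the 6 omissions.

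The members are long genes, with a median exonic length of 9231 bases against 4787 for all genes tested at 24 h, and long genes as a whole moved in the same direction as the members. In the longest quartile of genes tested with Arg, 24.9% were called higher at 48 h than at 24 h, against 7.58% in the shortest quartile, and 41% of the 61 members in that longest quartile were called. In the controls the shares were 15.8% and 5.01% of all genes, and 31.7% of the 60 members. When a trend on exonic length was removed from each library, the median log2 fold change over time with Arg went from 0.14 to 0.04, and in the controls from 0.17 to 0.09. Calls with Arg became 19 higher (20.4%, beside 12.6% of all genes) and 7 lower (7.53%, beside 13.6%), and in the controls 17 higher (18.3%, beside 9.14%) and 8 lower (8.60%, beside 11%). The 19 were all among the 31. In the controls 16 of the 17 were among the 23, and SMARCD2 was added. ARID5B, CHD2, CHD3, CHD6, DNMT3A, TET2, KMT2C, HDAC1, HDAC5, KDM4B, ARID4B and SMARCA1 rose in both series under this correction too, and HDAC2, HDAC3, SMARCD1, SETD7 and SMARCB1 fell in both.

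**Figure D4:**
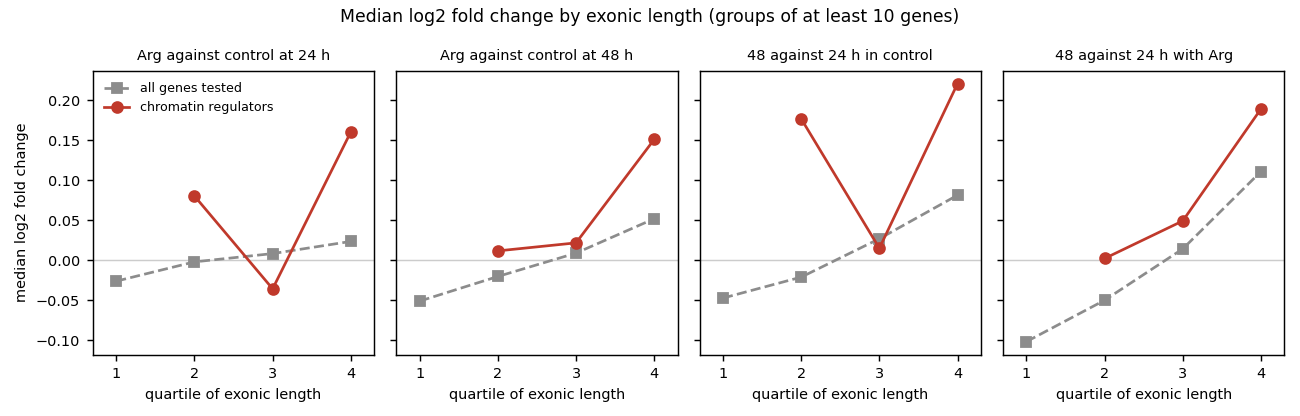
Median log2 fold change (y axis) by quartile of exonic length over the genes tested (x axis, 1 the shortest), in 4 comparisons. Circles are the chromatin regulators, squares all genes tested, and quartiles with fewer than 10 members are left out. The median of all genes rises with length in each panel, from -0.10 to 0.11 for 48 h against 24 h with Arg.

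For Arg at 24 h the length trend of all genes was smaller, with quartile medians from -0.03 to 0.02. The 61 members of the longest quartile had a median of 0.16. In quartile 3 the 19 members had a median of -0.04, against 0.01 for all genes. In quartile 2 the 12 members had a median of 0.08, against -0.002. SETD5, DNMT3B and SETD3 were called under the length correction as well. For Arg at 48 h the members' median went from 0.12 to 0.05 under the correction. What part length, or anything that goes with it, has in these differences was not tested.

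Cell cycle genes and markers of other cell types also differed in some of these comparisons. The 10 mitosis genes summed to 2480 to 2711 CPM in the controls at 24 h and 3024 to 3096 CPM with Arg, and 3 of them (MKI67, TOP2A and BUB1) were called higher with Arg at 24 h. CDK1 had a slightly lower mean there, 176 CPM with Arg against 185 CPM in the controls, and was not called. At 48 h the mitosis genes summed to 2324 to 2580 CPM in the controls and 2334 to 2612 CPM with Arg. Between 24 and 48 h with Arg 9 of the 10 were called lower, beside 14% of all genes. In that comparison 31 members (33.3%) were called higher, beside 14.3% of all genes, and 19 under the exonic length correction. EZH2 had its highest group mean with Arg at 24 h, and so did other members such as HDAC7, BRD9 and KMT5A. Others, such as CHD3 and ARID5B, were highest with Arg at 48 h. Of the 10 DNA replication genes 8 had positive values with Arg at 24 h and none was called. The fibroblast list summed to 34.4 to 54.4 CPM in the controls at 24 h and 85.3 to 103 CPM at 48 h, and to 30.3 to 41.3 CPM and 72.7 to 100.2 CPM with Arg. DCN at 15.2 to 76.1 CPM and COL1A1 at 10.8 to 27.0 CPM carried that sum, its other markers reached at most 2.34 CPM, and COL1A2 at most 0.0575 CPM. The endothelial list, KDR and VWF for the most part, summed to at most 3.01 CPM at 24 h and to 4.08 to 6.41 CPM at 48 h. The melanocyte list summed to 16.2 to 30.6 CPM, of which MITF held 14.5 to 27.8 CPM, with TYR at 0 in every library. The part of these genes in the members' differences was not tested. In bulk RNA, fewer cells of a type and less RNA per cell cannot be told apart.

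The partner proteins of the members' complexes were examined through 94 genes in 9 lists. With Arg at 24 h none was called higher and 2 were called lower, beside 2.79% and 3.84% of all genes. BCL7B, a SWI/SNF subunit, measured 83.3, 83.2 and 79.9 CPM in the controls and 67.0, 63.8 and 66.4 CPM with Arg (log2 fold change -0.32, edgeR adjusted p = 0.0252). SIRT1, an NAD-dependent deacetylase, measured 47.6, 43.4 and 44.9 CPM against 37.2, 32.8 and 32.8 CPM (log2 fold change -0.40, edgeR adjusted p = 0.0173). Both sets of libraries were apart without overlap. Of the 10 histone acetyltransferases, which oppose the HDAC enzymes, 9 had positive values with a median of 0.11 and no call. The 10 COMPASS partners of KMT2 and SETD1 had a median of -0.01, with 5 positive, and the 9 PRC2 partners of EZH a median of 0.07, also with 5 positive. The medians of the other lists ran from -0.20 for the 7 sirtuins to 0.11 for the 11 other histone methyltransferases. At 48 h no partner was called with Arg.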

How the data were processed

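Poly(A) RNA of 12 TIGK libraries was sequenced as paired-end reads. According to the study's methods and the submitters' processing notes, the authors used fastp for trimming, STAR for alignment to GRCh38 and featureCounts for counting. The deposited table holds these raw counts with gene name, position and exonic length. Versions, annotation release and strand setting are not given in the sources used here.

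From the counts, edgeR 4.0.16 (R 4.3.3) was run with TMM factors and filterByExpr on the 6 libraries of each comparison, with the quasi-likelihood test over all genes and Benjamini-Hochberg adjustment (called at adjusted p under 0.05). The interaction used all 12 libraries. CPM used TMM factors of the 12 libraries. DESeq2 1.42.0, other scalings and filters, a replicate block, removal of a lowess trend on exonic length (span 0.3) and leaving out each library were alternatives. Scripts were tested on simulated data. No 2 libraries of a group agreed within sampling noise.

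The members and lists were chosen with earlier results of these data known. Named members are those called with Arg at 24 h, the 5 smallest p per direction elsewhere, the highest level and largest change in each role, and a fixed set of paralogs and abundant members, of which 1 is not reported here. The other members named (such as HDAC7, KDM4B or HDAC6) were chosen after their values were seen. Deviations of same-lettered libraries correlated weakly over genes (from -0.0615 to 0.135), so letters were not taken as pairs. The largest value was that of control B at 24 and 48 h, where the median member also stood above A and C.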

Additional observations from a re-analysis of the deposited data

How the results depend on the processing

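Over the settings other than leaving out a library, the values of the named members kept direction and side of the threshold in 548 cases, gained a call in 29, lost it in 4 and changed sign in 2. SETD5 was called with Arg at 24 h under every alternative run. The counts of calls that follow carry no shares of all genes, except where these are given above. They describe the settings and do not tell a change of the members from one of all genes. With Arg at 24 h, 5 members were higher by DESeq2, with no filter on low counts and with all 12 libraries in 1 model, and 2 were lower with no filter. With Arg at 48 h, 4 were higher by DESeq2, and 6 higher and 1 lower with no filter. Over time in the controls, 5 were lower by DESeq2 and with no filter, 7 with all 12 libraries and 1 with library size only. The exonic length correction gave 8 lower in the controls, and 19 higher and 7 lower with Arg. It moved the medians to 0.0484 (Arg at 48 h), 0.0884 (controls over time) and 0.0357 (Arg over time).

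The replicate block gave 0 lower with Arg at 24 h (SETD3 edgeR adjusted p = 0.0603), 2 higher with Arg at 48 h (KMT2D and TET3) and 7 lower over time in the controls. The libraries share only a letter, so these values stand beside the main ones as a check. With the block and the length correction together, 9 were lower over time in the controls and 18 higher and 7 lower with Arg, with medians of 0.0900 and 0.0576, and 0.0477 for Arg at 48 h.

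Leaving out single libraries gave 1 to 16 higher and 0 to 1 lower with Arg at 24 h, 0 to 23 and 0 to 2 at 48 h, 5 to 29 and 0 to 5 over time in the controls, and 20 to 31 higher over time with Arg, where the median ranged from 0.103 to 0.213. The 24 h value of DNMT1 turned to -0.0157 under the length correction, to -0.0191 with the block as well, and ranged from -0.0725 to 0.0665 over the omissions. The cause was not tested. With 3 libraries a group, differences of members with few counts, such as TET1 and CHD5, carried large errors.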
